A study of Drosophila melanogaster with 3 samples.

Results

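The Iroquois complex of Drosophila melanogaster is the cluster of the homeobox genes ara, caup and mirr on chromosome arm 3L, and its window held 2 of the 7579 peaks of a Caudal ChIP-seq list. The peaks were chosen by position alone, as those whose midpoint lay between 12560000 and 12720000 of 3L on the BDGP5 assembly, a window of 160 kb. They were 2 of the 1548 peaks on 3L. Chromatin was immunoprecipitated in 1 ChIP sample of the transgene cad-GFP, from the source labelled 7T at the stage labelled 3dFemale, with the anti-GFP antibody labelled NWG-GFP. The title of that sample covers replicates 1 and 2, and 2 input samples of the same source and stage complete the series. Only the ChIP sample had a peak list here, and no values of the inputs were analysed. The growth text names y w, VK33 flies and speaks of collected embryos, at odds with the stage label, and the labels do not say what drives the transgene.

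Caudal, the tagged protein, binds DNA through a homeodomain, patterns the posterior of the embryo, acts in the gut and belongs to the family of the vertebrate Cdx proteins. The proteins of ara (araucan), caup (caupolican) and mirr (mirror) are homeodomain transcription factors of the TALE class, and the related Irx genes of vertebrates also lie in clusters. Ara and Caup act upstream of the proneural genes achaete and scute in bristle patterning of the wing disc and are known for largely overlapping expression. Mirr is known for its roles in the dorsal eye and in the follicle cells of the ovary, where it takes part in setting the dorsal-ventral axis of the egg. Genes of such developmental clusters are known to be controlled by enhancers that lie far from their promoters.

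All 3 genes were found in the RefSeq gene table used for names, which is of Release 6 and not of the build of the peaks. In that table the order along 3L is sowah, the non-coding gene lncRNA:CR43612, ara, caup, then 4 long non-coding genes (lncRNA:CR32111, lncRNA:CR43431, lncRNA:CR44553 and lncRNA:CR44552), then mirr, then SmD1, which encodes a core protein of spliceosomal snRNPs, and Ptp69D, a receptor tyrosine phosphatase of axon guidance. Caup is therefore the single protein-coding gene between ara and mirr. The table gave the order only, and neither peak was assigned to a gene, an intron or an intergenic stretch. No sequence is shown because no BDGP5 sequence was used here.

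The complex lay in a sparse stretch between fuller ones. The first peak in the window ran from 12646143 to 12646839 of 3L, was 697 bp wide and had a score of 187.19. The second ran from 12685802 to 12686980, was 1179 bp wide and had a score of 520.64. The score is the authors' own value per peak and is not defined in the file. It starts at 50 and rises to 3145.59 over the list, and it was used only to order and describe peaks. The second peak was the wider and the higher scored of the pair. Their midpoints lay 39.9 kb apart, at 86.5 kb and 126 kb from the left edge of the window, so the left 86.1 kb held no peak at all. Of the 8 stretches of 20 kb that make up the window, 6 held no midpoint, and 46.3% of such stretches were empty along 3L.

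**Figure D1:**
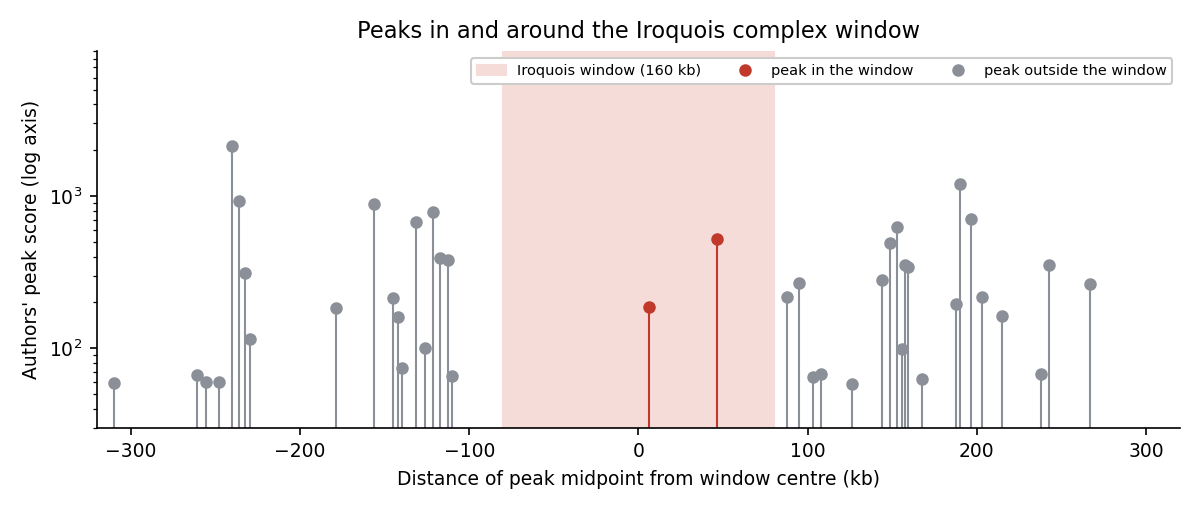
The authors' score of each peak (log axis) against the distance of its midpoint from the centre of the Iroquois window in kb, for the 41 peaks within 320 kb of that centre. The 2 peaks in the shaded window, with scores of 187.19 and 520.64, stand between 39 peaks outside it.

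Peaks were denser again within 80 kb of the window on either side, though on the left not directly from its edge. On the left the nearest peak, from 12529664 to 12530434, was 771 bp wide with a score of 65.35 and ended 29.6 kb before the window. On the right the nearest, from 12726684 to 12729148, was 2465 bp wide with a score of 216.50 and began 6.68 kb after it. The window held 2 peaks in 160 kb, while the 80 kb before it held 10 peaks and the 80 kb after it held 11. Peaks covered 1.17% of the window, against 23.8% of the 80 kb before it and 30.2% of the 80 kb after it. In the 80 kb before the window the peaks were 771 to 4075 bp wide, with scores from 65.35 to 883.79 and a median of 297. In the 80 kb after it they were 723 to 5106 bp wide, with scores from 58.27 to 630.37 and a median of 267. Both scores of the Iroquois pair fell inside the range of either flank. Of the neighbouring midpoints, 0 of 1 pair lay within 5 kb in the window, against 6 of 9 before it, 6 of 10 after it and 47.3% along 3L.

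Widening the window about its centre returned it to the density of the arm. A window of 120 kb held 2 peaks and one of 200 kb held 4. The density of 3L between its first and last peak gives 7.98 and 13.3. At 240 kb the count was 9 (15.95 at the density of the arm), at 300 kb it was 18 (19.9), at 400 kb 28 (26.6) and at 600 kb 40 (39.9). From the end of the last peak on the left to the start of the first on the right, 12530435 to 12726683, the sparse stretch measured 196 kb.

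The count was then set against other windows of the same size along the arm. Between its first and last peak, 3L was laid out in 145 windows of 160 kb in step with the Iroquois window. The windows do not overlap and stand in place of randomly drawn ones. This is one way to lay them, and with windows laid every 10 kb the share as sparse as the complex was 10.4%. The Iroquois window held 2 peaks, and the other 144 windows held 10.7 ± 6.54 (SD over windows), with a median of 10, quartiles of 6 and 15 and a range of 0 to 31. Any stretch of the arm before the first peak or after the last was not counted. Windows with 2 or fewer peaks made up 12.4% of the windows laid, or 18 of 145 with the Iroquois window included. Among them 5 windows were empty, 7 held 1 peak and 6, the Iroquois window being one, held 2. The complex therefore lay in the sparse part of the arm without being its extreme. The fullest windows held 31 peaks (7760000 to 7920000), 30 (17840000 to 18000000) and 27 (9360000 to 9520000).

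**Figure D2:**
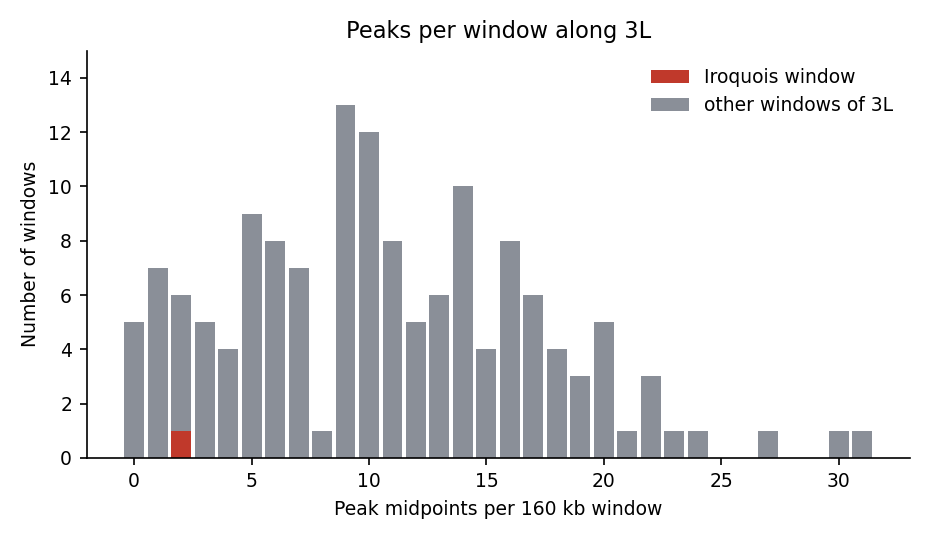
Number of 160 kb windows of 3L (vertical axis) by the number of peak midpoints they hold (horizontal axis), with the Iroquois window in red and the other 144 windows stacked in grey. The Iroquois window is one of 6 windows with 2 peaks, below the median of 10 of the other windows.

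The length of DNA inside peaks gave a like position. Peaks covered 1.88 kb (1.17%) of the Iroquois window, and in the other windows they covered 18.1 ± 13.7 kb (SD, n = 144 windows), with a median of 15.5 kb and a range of 0 to 72.3 kb. At or under the covered length of the Iroquois window lay 9.66% of the windows, 14 of 145. The greatest covered lengths were 72.3 kb (9360000 to 9520000), 49.2 kb (19760000 to 19920000) and 48.6 kb (7760000 to 7920000). The longest stretch without a peak inside a window did not set the complex as far from the other windows. It was 86.1 kb in the Iroquois window, against a median of 58.7 kb and quartiles of 41.8 and 91.4 kb in the other windows, and 27.6% of the windows had one at least as long. The 2 peaks divided the window, whereas each of the other 17 windows with 2 or fewer peaks had an unbroken peak-free stretch of at least 114 kb. This contrast depends on where the edges fall, since the left edge cut the 86.1 kb from a gap of 116 kb. With the window moved 20 kb to the left the stretch was 106 kb. Stretches of the other windows can be cut in the same way.

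In this layout, the windows on either side of the complex were fuller than those beside most sparse windows. The window before it (12400000 to 12560000) held 14 peaks covering 27.7 kb, and the window after it (12720000 to 12880000) held 18 peaks covering 34.2 kb. Of the 17 windows with 2 or fewer peaks that have a complete window on each side, 4 had 10 or more peaks in both neighbours, the Iroquois window included. Of the 16 others, 1 had at least 14 peaks in both, the window from 20560000 to 20720000, which was empty and stood between 20 and 15 peaks. This count was taken after the neighbours of the complex had been seen, and is a description only. It also depends on the layout, which was set in step with the complex and can cut other sparse stretches across windows. The empty windows that start at 13520000 and 13680000, each a neighbour of the other, lie in the same gap of 348 kb.

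**Figure D3:**
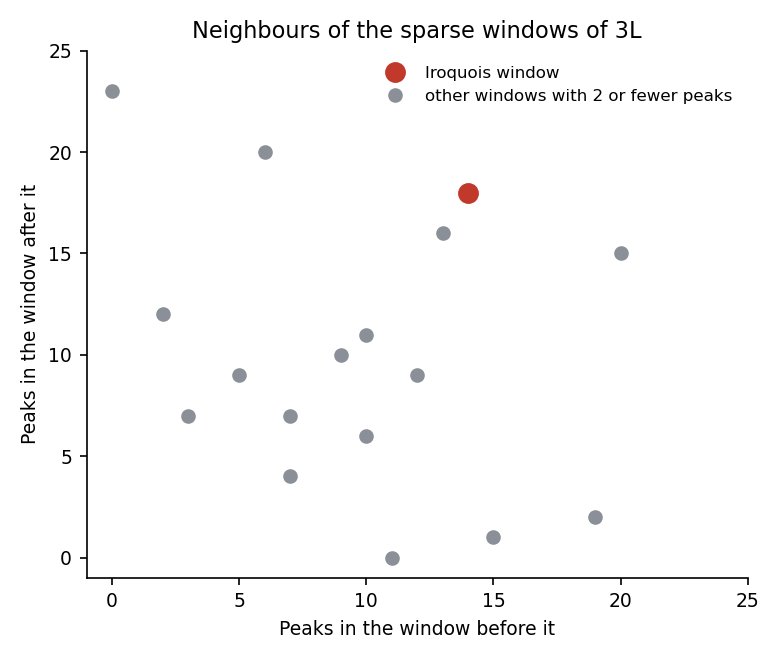
Peaks in the 160 kb window before (horizontal axis) and after (vertical axis) each of the 17 windows of 3L with 2 or fewer peaks and a complete window on either side. The Iroquois window, in red, stands at 14 and 18, and 1 of the 16 other windows, at 20 and 15, has at least 14 in both.

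Gaps between neighbouring peaks described the same stretch edge to edge. The gap before the first Iroquois peak, 12530435 to 12646142, measured 116 kb and reached beyond the left edge of the window. The gap between the pair, 12646840 to 12685801, measured 39.0 kb, and the gap after the second, 12686981 to 12726683, measured 39.7 kb. Among the 1547 gaps of 3L these 3 ranked 32, 141 and 138 from the longest, while the 1544 gaps that do not touch the complex had a median of 3.45 kb and quartiles of 0.794 and 10.9 kb. Longer gaps than the first were 2.00% of the gaps of 3L, and the longest of the arm measured 348 kb. The distance of 39.9 kb between the midpoints of the pair compares with a median of 5.36 kb and an upper quartile of 12.4 kb among pairs that do not touch the complex. The 196 kb from the peak on the left to the peak on the right, which encloses the pair, ranked 45 among 1545 such spans over 2 peaks, whose median was 24.5 kb. The 44 longer spans, some of which overlap, fell into 21 separate stretches of the arm.

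**Figure D4:**
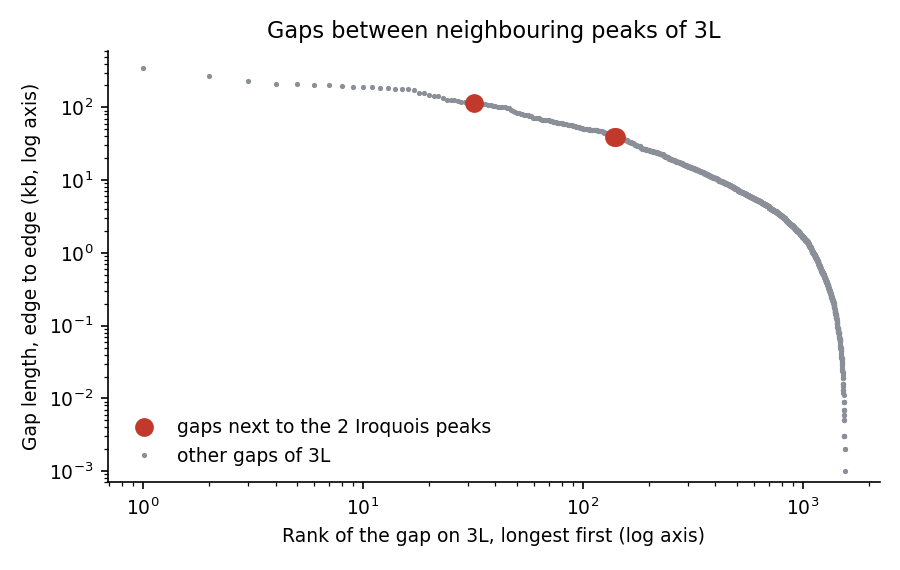
Length of each of the 1547 gaps between neighbouring peaks of 3L in kb (log axis) against its rank from the longest (log axis), with the 3 gaps that touch the Iroquois peaks in red. These 3 measure 116, 39.7 and 39.0 kb and lie in the long tail, at ranks 32, 138 and 141, where the last points overlap.

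Both Iroquois peaks stood alone. Each was the other's nearest neighbour, and 21 of the 1548 peaks of 3L lay farther than 39.9 kb from their nearest midpoint. Without any other midpoint within 20 kb were both Iroquois peaks and 3.36% of the peaks of 3L. The other 50 such peaks had a median width of 775 bp (quartiles 627 and 1202 bp) and a median score of 147 (quartiles 75.6 and 265). The first Iroquois peak had a higher score than 32 of these 50 and was narrower than 31 of them. The second had a higher score than 45 of the 50 and was wider than 37 of them.

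In width and score the pair sat at different places among the peaks of the arm. The widths were 697 and 1179 bp, against a median of 1304.5 bp with quartiles of 841 and 2114 bp for the other 1546 peaks of 3L, so both were narrower than the median. The scores were 187.19 and 520.64, against a median of 199 with quartiles of 97.7 and 416. The first scored higher than 47.8% of the peaks of 3L and the second higher than 80.04%. At or above the median score of the whole list, 198.7, lay 1 of the 2 Iroquois peaks and 50% of the peaks of 3L, and under a score of 100 lay 0 of the 2 and 25.9%. Shares of 2 peaks cannot be told from these background shares.

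Wider peaks tended to have higher scores, with exceptions (Spearman's rho 0.67 across the 1548 peaks of 3L), and width and score come from one call on the same reads. Against 3L peaks within 10% of its own width, the first Iroquois peak scored 187.19, where the 147 others had a median of 110 and quartiles of 72.7 and 170, and it lay above 79.6% of them. The second scored 520.64, where the 204 others had a median of 190 and quartiles of 110 and 297, and it lay above 92.2% of them. Both Iroquois peaks thus scored above the upper quartile of peaks of like width. In the other 12 windows of 3L with 1 or 2 peaks, the 17 peaks had scores from 63.64 to 1081.12 with a median of 146 and quartiles of 112 and 176. Both Iroquois scores were above that upper quartile and below the highest of the 17.

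**Figure D5:**
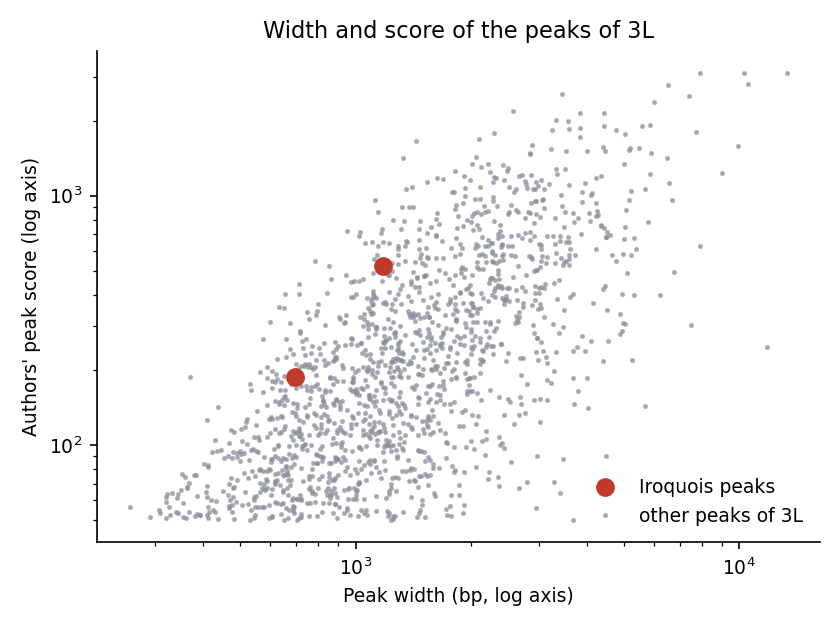
Authors' score (log axis) against width in bp (log axis) of the peaks of 3L, with the 2 Iroquois peaks in red and the other 1546 in grey. At 697 bp with 187.19, the first lies above 79.6% of the other peaks within 10% of its width. At 1179 bp with 520.64, the second lies above 92.2% of those within 10% of its own.

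Windows as sparse as the Iroquois window were found on the other 4 large arms too. Those with 2 or fewer peaks were 20.4% of the 142 windows of 2L, 13.1% of the 130 of 2R, 8.62% of the 174 of 3R and 13.7% of the 139 of X, and chromosome 4 was not laid out in windows. The 1 list stands for the ChIP replicates, so none of these values has a replicate error and no test was made. The read depth is unknown, and whether reads could be mapped in the gaps, and whether a deeper library would have called more peaks there, was not tested.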

How the data were processed

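One peak list, that of the cad-GFP ChIP sample, was analysed. It was made with MACS, per the file headers. Bowtie and the build BDGP5 are named in the submitters' processing notes. Versions, settings and any pooling of replicates were not stated. For each peak the authors deposited a start, an end and a score. The depth is unknown, so no interval or detection limit was computed. Starts are printed from 1, midpoints lie halfway between start and end, and a gap runs from edge to edge. Windows of 160 kb that fit between the first and last peak of 3L were laid in step with the window of the complex. No chance test was made and no p-value is given. Every peak of the complex is given by position, as are its gaps and the 3 fullest windows by count and by covered length. The members, the window and the measures were chosen with earlier results of these data known. The score minimum, peak merging, the overlap rule, the window and the set of windows were varied, and a window of 200 kb was added after seeing the data. The functions were tested on simulated data. Python 3.11.15, numpy 2.4.6 and pandas 2.3.3 were used.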

Additional observations from a re-analysis of the deposited data

How the results depend on the processing

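Of the 10 alternatives, 2 changed only the windows used for comparison and could not move a value of the complex itself. Of the 78 values left after setting those aside, 41 stayed equal (counts within 1.5 times, other values within 1%). Most of the 41 were values of the complex that its peak positions and scores fix. The number of peaks was 2 in 5 of the other 8 alternatives, and 0 pairs lay within 5 kb in the 6 in which pairs were counted. In those 5 both counts follow from the positions and scores already given, so they are no further support. Both scores exceed 100, and neither peak lies near enough to another peak or to a window edge to change the counts. With scores at or above the list median of 198.7, 1 peak stayed, with 1.18 kb covered, a width of 1179 bp, a score of 521 and a peak-free stretch of 126 kb, and there was no pair to measure. The window moved 20 kb to the right held 4 peaks covering 5.08 kb, with a median width of 960.5 bp, a median score of 242 and a peak-free stretch of 66.1 kb. That stretch was 106 kb with the window moved 20 kb to the left and 66.1 kb in the window of 120 kb. The window of 200 kb, chosen after seeing the data, held 4 peaks covering 5.08 kb. The share of windows with as few peaks, 12.4% as reported, was 19.1% with scores at or above the list median, 16.6% with scores of 100 or more, 13.1% with peaks merged within 500 bp, 10.3% to the left, 15.2% to the right, 18.7% at 120 kb, 10.4% with windows every 10 kb, 13.5% over 2L, 3L, 3R and X, and 12.2% at 200 kb. The share with as little covered, 9.66% as reported, was 12.1% at or above the median score, 10.3% at 100 or more, 19.3% to the right, 15.5% at 120 kb, 8.30% every 10 kb, 10% over the 4 arms and 11.3% at 200 kb. The share with as long a peak-free stretch, 27.6% as reported, was 23.4% at or above the median score, 35.2% at 100 or more, 20.7% to the left, 44.8% to the right, 34.7% at 120 kb, 28.2% every 10 kb and 32.0% over the 4 arms. The cause of these shifts was not tested beyond the peaks or windows that each alternative adds or removes. With 1 list for the ChIP sample, no replicate could be left out. No paired analysis was possible because no result comes from a test between samples.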

Other observations

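The 3 gaps that touch the Iroquois peaks were consecutive and each at least 39.0 kb long. On 3L 2 of 1545 sets of 3 consecutive gaps were all at least that long, and the other ran from 17049180 to 17408623 with gaps of 182, 114 and 62.2 kb. The same count was 3 of 1278 on 2L, 8 of 1521 on 2R, 0 of 1785 on 3R and 1 of 1378 on X. Because the length was taken from the complex itself, its own set meets it by construction. With a length of 30 kb the counts were 5 on 3L, 6 on 2L, 9 on 2R, 7 on 3R and 2 on X, and with 20 kb they were 9 on 3L, 12 on 2L, 15 on 2R, 14 on 3R and 6 on X. Chromosome 4 was not counted. These counts were made after seeing the data and no test was made of them.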
